A study of Mus musculus with 27 samples.

Results

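The ileal expression of 34 tight junction and adherens junction genes was examined across a dose range of the dioxin TCDD, a persistent ligand of the aryl hydrocarbon receptor (AhR). The genes were chosen by name, with earlier results of these data known but with no threshold on a measured value, and all 34 were found by Ensembl identifier among the 46078 genes of the count tables. They comprise 10 claudins, 5 MARVEL and tricellular proteins, 7 scaffold proteins, 3 junctional adhesion molecules, 4 components of the adherens junction, 4 polarity proteins and myosin light chain kinase. RNA-Seq was performed on epithelium scraped from the distal ileum of 27 male C57BL/6 mice, 3 in each of 9 groups. The controls received sesame oil by gavage, and the other 8 groups received TCDD in the same oil, at 0.01, 0.03, 0.1 and 0.3 µg/kg in the 4 lower groups and at 1, 3, 10 and 30 µg/kg in the 4 upper groups. All groups were gavaged every 4 days for 28 days, and tissue was taken at postnatal day 56. Each library came from 1 mouse. Mice were housed in shared cages, and the labels do not give the cage, so an effect of cage cannot be told apart from dose. The study also assessed the permeability of the gut to sugar probes at 30 µg/kg, a function that junctions set. It reported higher permeability in the gastroduodenal region and the colon, and no change in the small intestine. The junction transcripts described here are those of the distal ileum only.

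Tight junctions are continuous strands at the apical end of the lateral membrane, where claudins of neighbouring enterocytes pair and determine which ions and solutes pass between the cells. Occludin, marvelD3 and tricellulin (encoded by *Marveld2*) are MARVEL-domain proteins of the strands, and tricellulin is gathered with the angulins LSR and ILDR1 where 3 cells meet. The zonula occludens proteins, cingulin and the MAGI proteins anchor the strands to actin from the cytoplasmic side. E-cadherin and its catenins form the adherens junction underneath, the PAR and Crumbs complexes place the junctions at the apical border, and myosin light chain kinase tightens the actomyosin ring that opens the paracellular route.

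Each mouse had 12260382 to 17135426 counts on genes, and the 34 genes took 0.607 to 0.73% of them. *Cyp1a1*, the classical AhR target, averaged 0.117 CPM in vehicle mice (CPM is the usual count relative to library size, here after TMM scaling), 45.4 at 3 µg/kg, 564 at 10 µg/kg and 1741 at 30 µg/kg. Summed enterocyte markers reached 17488 to 37937 CPM and distal ileum markers 3898 to 6984 CPM, against 37.0 to 415 CPM for smooth muscle and 34.2 to 64.0 CPM for endothelium. The 3 mice at 30 µg/kg differed from each other. In mouse 65 the 34 genes took the smallest share of counts of any library (0.607%). Its enterocyte marker sum of 17488 CPM lay below the 22060 to 24105 CPM of vehicle mice. The sums of the other 2 mice at that dose, 34657 and 37937 CPM, lay above the vehicle range. Mice 67 and 68 had the lowest TMM factors of all libraries (0.885 and 0.882), and that of mouse 65 was 1.026. A further feature of the series touched the comparisons of 1 to 30 µg/kg with vehicle: the library indexes of 16 mice were used a second time for the other 11, which were 2 mice at 1 µg/kg and all 9 at 3, 10 and 30 µg/kg. A score over 11 circadian clock genes, which is the mean of their standardised log2 levels with the sign of 4 of them reversed, also moved with dose, from between -0.999 and -0.824 in vehicle mice to between 1.038 and 1.201 at 30 µg/kg, with mouse 14 at 0.01 µg/kg, at 0.68, apart from its group. Because the tissue was analysed in bulk, fewer cells of a type and less RNA per cell cannot be told apart in any value below.

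In vehicle mice, *Cldn7*, which encodes a claudin of both the tight junction and the lateral membrane, had the highest level of the 34 genes. Divided by the merged exon length of each gene, its level was 502 ± 20.7 CPM per kilobase (SD, n = 3), followed by *Cldn3*, a barrier-forming claudin, at 232 ± 6.79 CPM per kilobase. E-cadherin (*Cdh1*) and beta-catenin (*Ctnnb1*) came next at 213 ± 6.86 and 179 ± 4.05 CPM per kilobase. Divided by the longest transcript instead, *Ctnnb1* ranked above *Cldn3* and *Cdh1*, and *Cldn7* remained highest. *Cldn7* accounted for 51.5% of the summed claudin level and *Cldn3* for 23.8%. The barrier claudin *Cldn4* made up 7.55%, and the pore-forming claudins *Cldn15* and *Cldn2*, which admit cations, made up 7.32% and 6.47%. The angulin *Lsr* (111 ± 2.16 CPM per kilobase) stood far above the other angulin, *Ildr1* (5.67 ± 0.814 CPM per kilobase). In all, 24 genes exceeded 10 CPM per kilobase (26 by the longest transcript). At the lower end were *Cldn8*, a barrier claudin known mostly from the colon and kidney, at 3.01 ± 0.914 CPM per kilobase, and the paracingulin gene *Cgnl1* at 0.613 ± 0.0871 CPM per kilobase. *Cldn5* and *Jam2*, known from endothelium, and *Jam3* had 0.179 to 0.331 CPM per kilobase. *Cldn1* had 0 to 6 counts in each of the 27 mice and did not pass the filter on low counts, so 33 of the 34 genes could be tested. Among the 33 neighbouring pairs in this order, the 3 vehicle mice overlapped in 17, including every step from *F11r* through *Cldn4*, *Tjp3* and *Cldn15* to *Cldn2*, although *F11r* lay clear of *Tjp3*, *Cldn15* and *Cldn2*. The 6 steps from *Cldn7* down to *F11r* showed no overlap between mice.

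**Figure D1:**
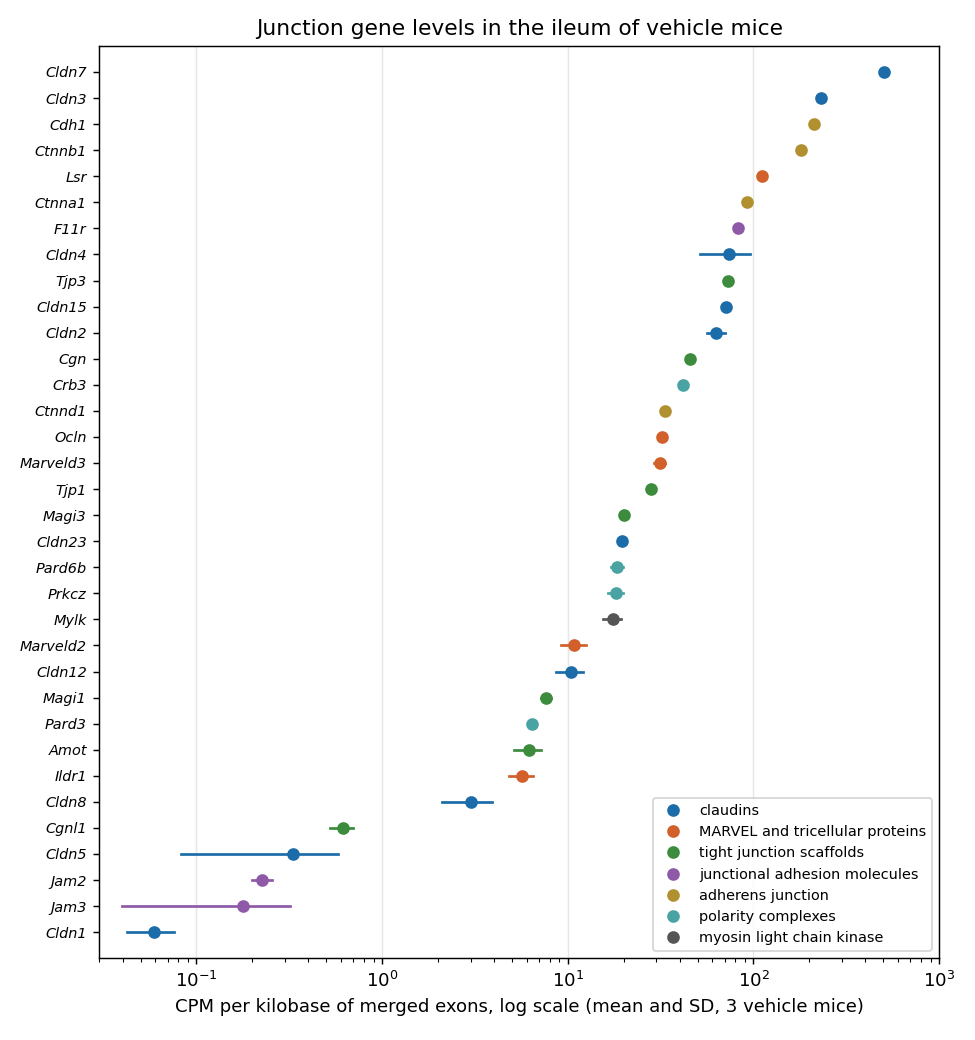
Level of each of the 34 genes in vehicle mice, in CPM per kilobase of merged exons on a log scale; points are means and lines the SD of 3 mice, coloured by role. *Cldn7* stands at 502 and *Cldn1* at 0.0589 CPM per kilobase.

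In all 27 mice *Cldn7* made up the largest share of the claudin pool. It held 47.1 to 53.8% of the summed claudin level in the 24 mice given vehicle or up to 10 µg/kg, and 42.6, 49.3 and 47.8% in mice 65, 67 and 68 at 30 µg/kg. *Cldn8*, at 0.22 to 0.43% of the pool in vehicle mice, was at 0.04 to 0.10% at 30 µg/kg. Mouse 65 had the lowest share of *Cldn4* (3.35%) and the highest shares of *Cldn3* (32.7%) and *Cldn2* (7.91%) of any mouse. These shares are a description of the pool and were not tested.

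**Figure D2:**
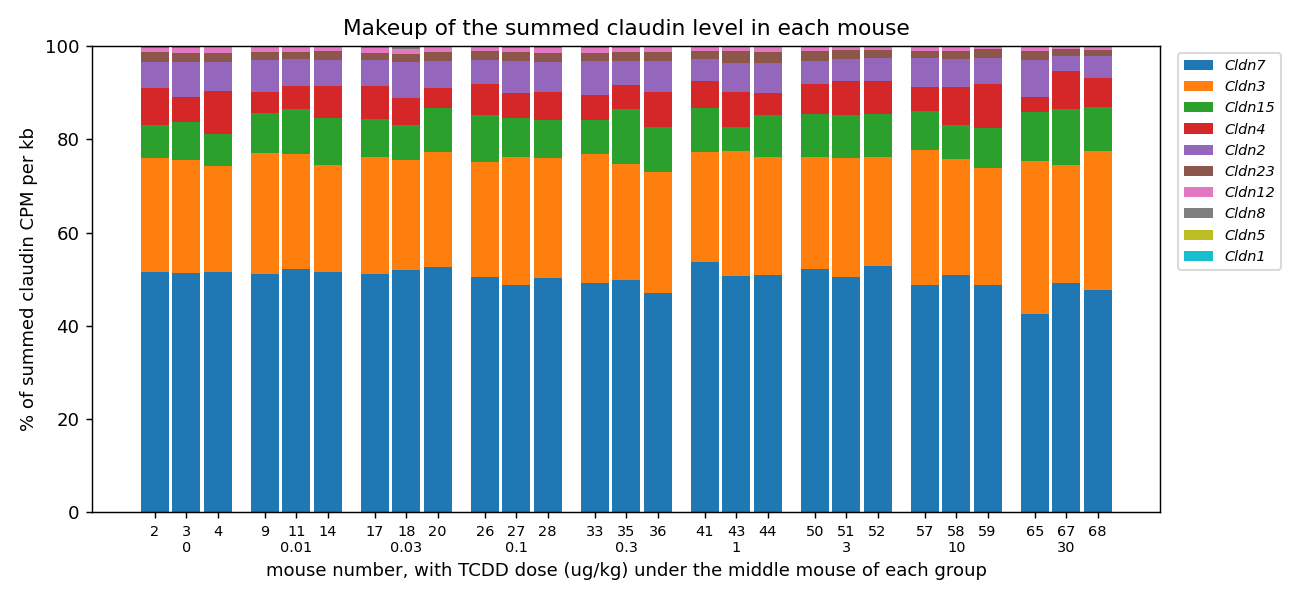
Percent of the summed claudin level (CPM per kilobase) contributed by each of the 10 claudins in each mouse, with mice grouped by dose. *Cldn7* and *Cldn3* form most of every bar, and mouse 65 has the smallest *Cldn7* share, 42.6%.

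Each dose was compared with vehicle in 1 edgeR quasi-likelihood fit over all 27 mice, and a gene passed at a Benjamini-Hochberg adjusted p of at most 0.05 over the 16741 genes tested. The fit uses 1 spread per gene for all groups, but the mice at 30 µg/kg differed more from each other than the vehicle mice did. For genes with a wider spread at 30 µg/kg, the SE and adjusted p given for that dose can therefore be too small. The comparisons share the 3 vehicle mice and are not independent of each other. At 0.01, 0.03, 0.1 and 0.3 µg/kg, 0 of the 33 junction genes passed in edgeR, as did 0 genes of the whole table, and DESeq2 called 0 junction genes at these doses. At an unadjusted p under 0.05, edgeR counted 2, 1, 1 and 1 junction genes at the 4 doses, where 4.18, 3.53, 6.19 and 7.45% of all genes were under it. At 1 µg/kg, 0 of 33 passed in edgeR and in DESeq2, where 0.902% of all genes passed in edgeR. At an unadjusted p under 0.05 there were 3 (9.09%), against 14.1% of all genes. At 3 µg/kg, 0 of 33 passed in edgeR, where 1.7% of all genes did, and 5 (15.2%) had an unadjusted p under 0.05, against 13.7% of all genes. DESeq2 called 1 gene at 3 µg/kg, *Cldn8* (log2 fold change -1.23, adjusted p = 0.0216). A fit of only the 6 mice of these 2 groups called *Cldn8*, *Cldn2*, *Cldn15* and *Tjp1*, 4 of 32, and 5.66% of all genes.

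At 10 µg/kg, *Ildr1* was higher and *Cldn8* lower than in vehicle, and these were the 2 of 33 junction genes that passed, against 3.8% of all genes (2.46% higher and 1.34% lower). Both also reached a fold change of 1.5, as did 2.53% of all genes. At 30 µg/kg, 10 of the 33 passed (30.3%), where 17.8% of all genes did. Of these, 6 were higher (*Ildr1*, *Cldn15*, *Tjp1*, *Magi1*, *Magi3* and *Prkcz*; 9.29% of all genes were called higher) and 4 lower (*Cldn8*, *Cldn12*, *Tjp3* and *Amot*; 8.49% called lower). A fold change of 1.5 was reached by 4 of them, *Ildr1*, *Cldn8*, *Amot* and, narrowly, *Cldn15* (12.1% of the 33, against 9.4% of all genes). The median log2 fold change of the 33 genes was 0.05, beside 0.02 over all genes. Without TMM, with the library size as the only scaling, the median over all genes at 30 µg/kg was -0.11, and 11 junction genes passed, 2 higher (*Ildr1* and *Tjp1*) and 9 lower. Over all genes the same scaling gave 912 higher and 2376 lower, in place of 1555 and 1421. Without mouse 65, 13 passed, and leaving out each of the other 5 mice compared gave 6 (without vehicle mouse 2 or 3), 4 (without vehicle mouse 4 or mouse 67) and 5 (without mouse 68). The share of all genes called moved alike, from 17.8% to 26.8% without mouse 65 and to between 8.31 and 15.4% without another mouse. The 23 tested genes that did not pass at 30 µg/kg had log2 fold changes from -0.37 (*Cldn23*) to 0.38 (*Jam3*). The value of *Jam3* is uncertain, because it had only 1 to 13 counts in vehicle mice. It also shares 36.2% of its exon bases with a gene on the opposite strand.

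**Figure D3:**
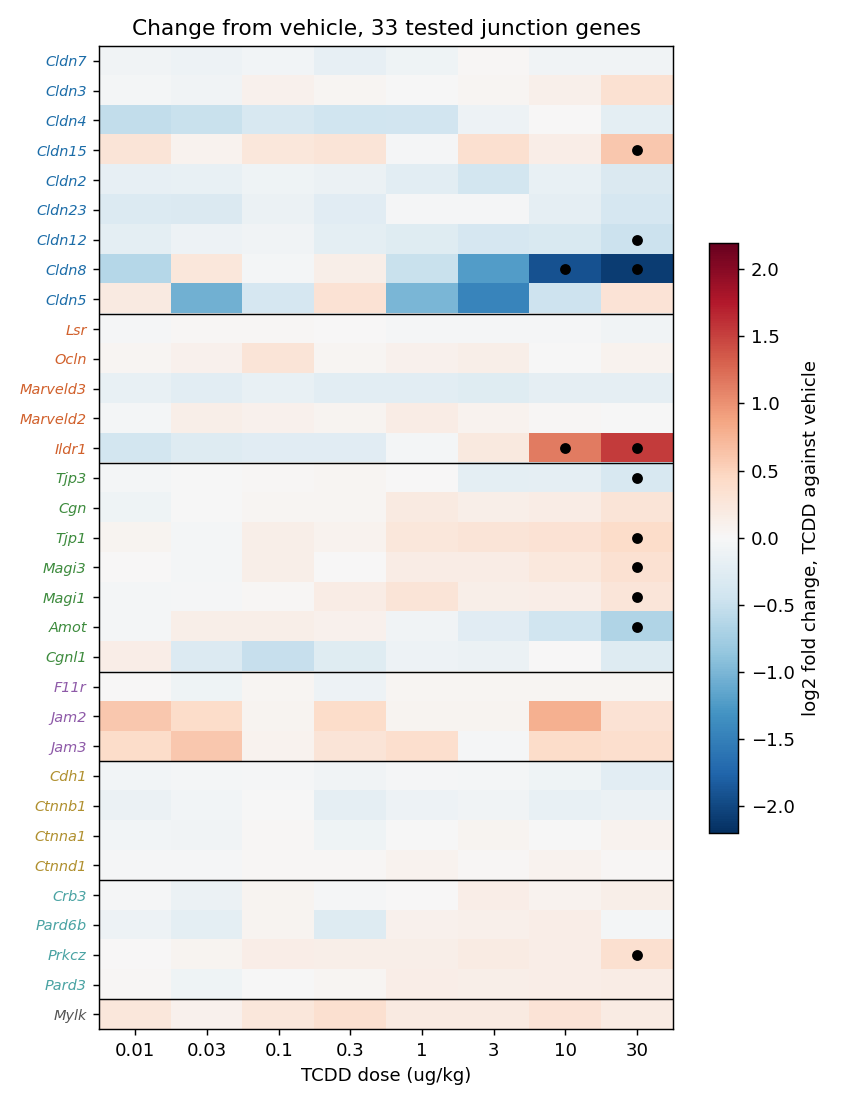
Log2 fold change against vehicle of the 33 tested genes (down the side, grouped by role) at the 8 TCDD doses (along the bottom); black dots mark an adjusted p of at most 0.05. There are 2 dots at 10 µg/kg, *Cldn8* and *Ildr1*, and 10 at 30 µg/kg.

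Among the claudins, *Cldn8* showed the largest fall of the 33 genes. The gene (ENSMUSG00000050520) lies at chr16:88560828-88563183 in GRCm38, and its exons were counted. It had 6.76, 9.39 and 5.12 CPM in vehicle mice 2, 3 and 4 (74 to 128 counts), 2.51, 1.39 and 1.77 CPM at 10 µg/kg, and 1.86, 0.928 and 2.198 CPM in mice 65, 67 and 68 at 30 µg/kg (12 to 27 counts). Every mouse at the 2 top doses lay below every vehicle mouse. The fall was 4.25-fold at 30 µg/kg (log2 fold change -2.09 ± 0.39 (SE), adjusted p = 0.000803) and 3.76-fold at 10 µg/kg (-1.91 ± 0.38, adjusted p = 0.00513). At 3 µg/kg its 3 mice were also all below vehicle, at 3.85, 3.08 and 2.13 CPM, but the difference of -1.24 ± 0.36 did not pass (adjusted p = 0.0914). Means at the lower doses lay between 4.59 CPM (0.01 µg/kg) and 8.42 CPM (0.03 µg/kg), around the vehicle mean of 7.09 CPM.

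*Cldn12*, a claudin linked to calcium passage, had 38.9, 40.4 and 52.1 CPM in vehicle mice and 32.2, 28.2 and 34.4 CPM at 30 µg/kg. The groups did not overlap, although vehicle mouse 4 lay well above the other 2. The difference was 1.39-fold (-0.47 ± 0.11, adjusted p = 0.00602), and without mouse 4 it missed the threshold, as it did without mouse 67. The pore-forming *Cldn15* had 147, 160 and 148 CPM in vehicle mice and, at 30 µg/kg, 170, 277 and 237 CPM. All 3 treated mice were above vehicle, mouse 65 by little. The rise of 1.502-fold (0.59 ± 0.18, adjusted p = 0.0292) was lost when any mouse other than mouse 65 was left out, with adjusted p up to 0.196. The most abundant claudin, *Cldn7*, had 633, 1055 and 1102 CPM at 30 µg/kg against 935 to 1014 CPM in vehicle mice, a log2 fold change of -0.07 ± 0.14. *Cldn4* also spread widely at that dose, from 46.4 CPM in mouse 65 to 162 CPM in mouse 67, and its difference of -0.22 ± 0.34 did not pass. *Cldn3* lay above vehicle in all 3 mice, but with an adjusted p of 0.0569 in edgeR it did not pass (0.34 ± 0.12). It passed in DESeq2 (adjusted p = 0.0458), with upper-quartile scaling and with a minimum of 10 counts in every mouse.

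Of the MARVEL and tricellular proteins, *Ildr1* passed and the other 4 did not. *Ildr1* encodes angulin-2, which recruits tricellulin to tricellular contacts and is also known from enteroendocrine cells. The gene (ENSMUSG00000022900) lies at chr16:36693978-36726804. It had 20.3, 25.8 and 26.9 CPM in the controls. At 10 µg/kg it had 53.9, 54.8 and 53.1 CPM, and at 30 µg/kg it had 68.4, 68.3 and 76.5 CPM. The 3 groups did not overlap each other, and the mice within the treated groups lay close together, mouse 65 included. The rise was 2.22-fold at 10 µg/kg (1.15 ± 0.15, adjusted p = 7.02e-05) and 2.92-fold at 30 µg/kg (1.55 ± 0.15, adjusted p = 4.56e-07). At 3 µg/kg the mice had 27.7, 32.5 and 24.8 CPM, 1 within and 2 above the vehicle range, and the difference of 0.22 ± 0.15 did not pass. A direct comparison of 30 with 3 µg/kg, both of which hold only libraries with the second use of an index, gave 2.51-fold (1.33 ± 0.15, adjusted p = 1.36e-05). *Ildr1* was the 1 of 33 junction genes to pass that comparison, in which 1.17% of all genes did. Without mouse 65, 4 of 33 passed it, *Ildr1*, *Cgnl1* (-1.21), *Amot* (-0.58) and *Magi3* (0.29), where 1351 of all genes (7.92%) did.

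Of the 5 enteroendocrine markers, 4 (*Chga*, *Chgb*, *Neurod1* and *Sct*) passed as higher at 30 µg/kg, where 17.8% of all genes passed. At 10 µg/kg 1 of the 5 (*Chgb*) passed, where 3.8% of all genes did. None of the 5 markers was at 0. Their summed level was 85.4 to 101 CPM in the controls. At 3, 10 and 30 µg/kg it was 104 to 139, 121 to 143 and 179 to 197 CPM. Chromogranin B (*Chgb*) went from 43.8 ± 4.29 to 99.8 ± 5.94 CPM, 2.28-fold, and chromogranin A (*Chga*) from 23.4 ± 3.19 to 50.1 ± 3.65 CPM, 2.14-fold. Their part in the rise of *Ildr1* was not tested. *Marveld2*, encoding the tricellulin that angulins recruit, had a log2 fold change of -0.01 ± 0.09 at 30 µg/kg, and the abundant angulin *Lsr* one of -0.07 ± 0.08. *Ocln* (0.07 ± 0.12) and *Marveld3* (-0.20 ± 0.12) did not pass either. *Lsr* shares 44.7% of its exon bases with genes on the opposite strand, and whether the counts used strand is not given in the sources used here.

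**Figure D4:**
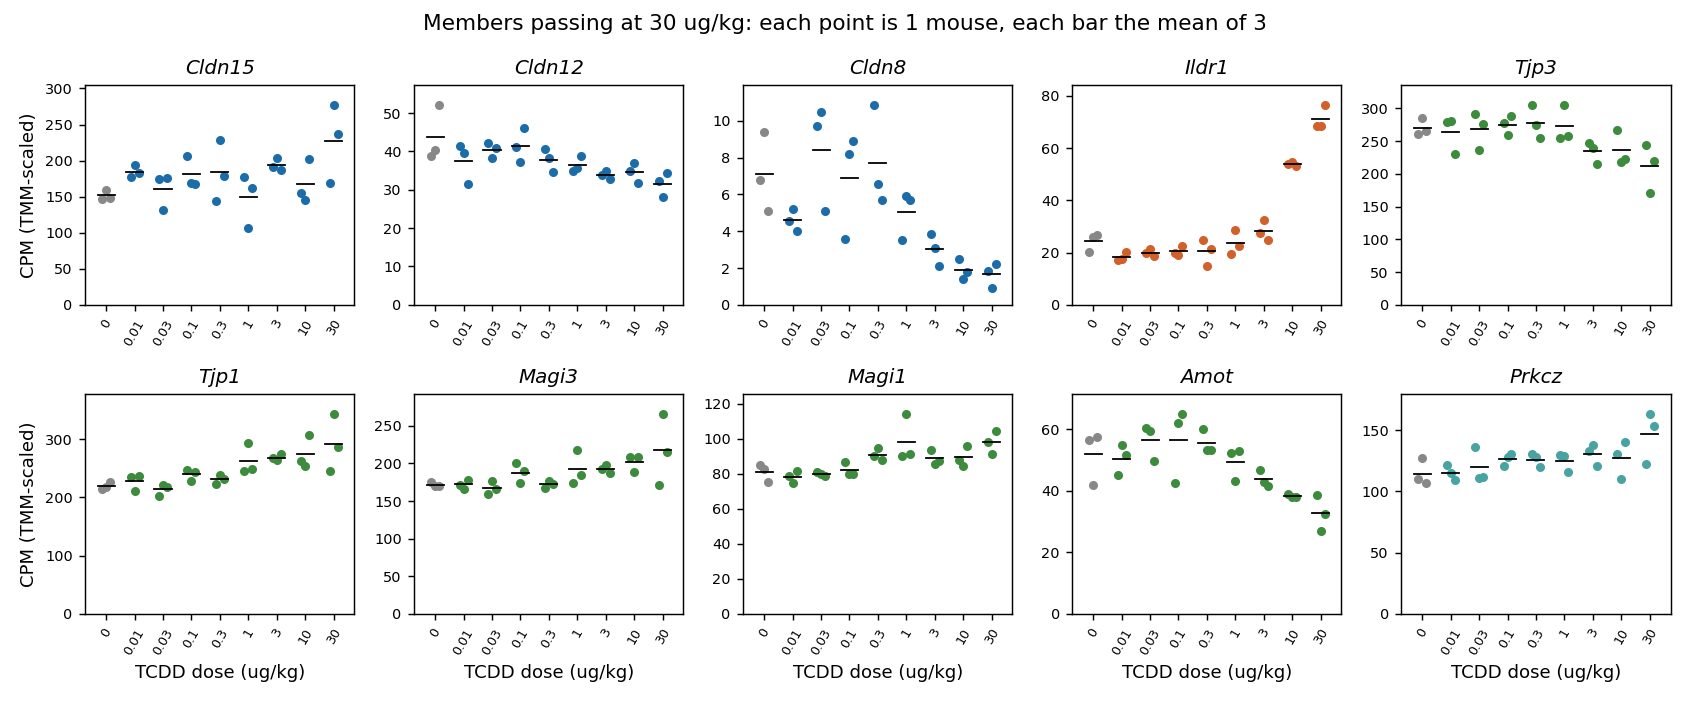
CPM of the 10 genes that passed at 30 µg/kg, by TCDD dose (0 is vehicle); points are mice, horizontal bars the means of 3 mice, and each axis starts at 0. *Ildr1* is at 15.02 to 32.5 CPM up to 3 µg/kg and at 53.1 CPM or more at 10 and 30 µg/kg, while *Cldn8* is at 2.51 CPM or less at both.

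Of the scaffold proteins, 5 of 7 passed at 30 µg/kg, where 17.8% of all genes did. These 5 did not pass with index use as a term or in the fit of only the mice compared. *Tjp1*, encoding ZO-1, which links claudins to actin, had 214, 217 and 227 CPM in vehicle mice and, at 30 µg/kg, 246, 343 and 286 CPM. All 3 treated mice were higher, by 1.33-fold on average (0.41 ± 0.10, adjusted p = 0.00561). Its group mean was already 268 and 274 CPM at 3 and 10 µg/kg, where the differences of 0.29 ± 0.10 and 0.32 ± 0.10 did not pass (adjusted p of 0.149 and 0.0673 in edgeR). DESeq2 called it at 10 µg/kg (adjusted p = 0.041), as did upper-quartile scaling and the minimum of 10 counts. Its relative *Tjp3*, encoding ZO-3, went the other way. It had 261, 285 and 266 CPM in vehicle mice and, at 30 µg/kg, 244, 171 and 220 CPM, without overlap (1.28-fold lower, -0.35 ± 0.12, adjusted p = 0.0426). The *Tjp1* call was lost without mouse 67, and the *Tjp3* call without any mouse other than mouse 65, with adjusted p up to 0.267.

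*Magi1* and *Magi3* encode membrane-associated guanylate kinases that bind junction proteins. *Magi1* had 85.2, 82.6 and 75.5 CPM in vehicle mice and 98.3, 91.3 and 104 CPM at 30 µg/kg, all above vehicle (0.27 ± 0.08, adjusted p = 0.0266). *Magi3* had 176, 170 and 170 CPM in vehicle mice and, at 30 µg/kg, 171, 266 and 216 CPM. Mouse 65 lay inside the vehicle range and the other 2 well above it (0.34 ± 0.11, adjusted p = 0.0296). *Magi1* missed the threshold without vehicle mouse 3 or 4 or without mouse 65 or 68, and *Magi3* without any mouse other than mouse 65. Angiomotin (*Amot*), a scaffold that binds the polarity and Hippo pathway proteins at junctions, had 56.4, 41.9 and 57.4 CPM in vehicle mice and 38.6, 27.1 and 32.6 CPM at 30 µg/kg. The groups were separate, and the fall was 1.58-fold (-0.66 ± 0.15, adjusted p = 0.00311). Its mean was 43.7 CPM at 3 µg/kg. At 10 µg/kg it was 38.4 CPM, where the difference of -0.43 ± 0.15 did not pass (adjusted p = 0.101). Cingulin (*Cgn*) was above vehicle in all 3 mice at 30 µg/kg (0.28 ± 0.11, adjusted p = 0.0708) without passing, and 17.2% of its 50-base transcript stretches are shared with other genes.

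Markers of some other cell types also passed at 30 µg/kg, where 17.8% of all genes did. Of the Paneth cell, T cell and macrophage markers 0 of 5 each passed in edgeR or DESeq2. Of the fibroblast markers 0 of 6 passed in either tool, although 2 had an unadjusted p under 0.05. Of the 5 stem and dividing cell markers, 2 (*Lgr5* and *Top2a*) were lower at 30 µg/kg. The sum of the 5 was 402 to 570 CPM in vehicle mice and, at 30 µg/kg, 209 to 454 CPM, and none was at 0. *Lgr5*, the crypt stem cell marker, was at 14.3 ± 4.08 CPM in the controls and, at 30 µg/kg, 4.72 ± 2.24 CPM. Of 6 goblet cell markers, 4 were higher at 30 µg/kg, and their sum was 20930 to 23640 CPM in vehicle mice and, at 30 µg/kg, 29287 to 32067 CPM. Of 5 B and plasma cell markers, 2 (*Jchain* and *Mzb1*) were lower, and their sum was 222.9 to 367.3 CPM in the controls and, at 30 µg/kg, 75.7 to 146.0 CPM. Of 5 distal ileum markers, 4 passed, 2 higher and 2 lower. Of the endothelial markers 2 of 7 passed, 1 in each direction, and of the enterocyte markers 1 of 9. Lists of 7 and 9 are too small for these counts to be set apart from the 17.8% of all genes. The part of these cell types in the junction gene changes was not tested.

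At 30 µg/kg, 0 of the 4 adherens junction genes passed in edgeR, where 17.8% of all genes did, and DESeq2 also called 0. A group of 4 is too small to be set apart from that share. At an unadjusted p under 0.05 there was 1, *Cdh1*, against 31.2% of all genes. E-cadherin had 970, 944 and 1007 CPM in vehicle mice and, at 30 µg/kg, 753, 827 and 912 CPM, all 3 below vehicle (-0.23 ± 0.10, adjusted p = 0.0985). The catenins, which join cadherins to actin or, for p120 (*Ctnnd1*), keep them at the surface, differed from vehicle by -0.14 ± 0.12 (*Ctnnb1*), 0.08 ± 0.10 (*Ctnna1*) and 0.02 ± 0.11 (*Ctnnd1*). With library size alone, *Cdh1* (-0.37) and *Ctnnb1* (-0.28) passed as lower. *Ctnnd1* shares 61.2% of its exon bases with a gene model on the same strand, and its counts are uncertain for that reason.

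Of the polarity proteins, the atypical protein kinase C zeta (*Prkcz*) passed at 30 µg/kg. It had 110, 127 and 107 CPM in vehicle mice and, at 30 µg/kg, 123, 163 and 154 CPM. Mouse 65 lay inside the vehicle range and the other 2 above it (1.28-fold, 0.35 ± 0.11, adjusted p = 0.0238). The call was lost without vehicle mouse 2 or 4, mouse 67 or mouse 68. For this gene, 14.8% of the 50-base transcript stretches also occur in another gene model. *Pard3*, the scaffold of the PAR complex, was above vehicle in all 3 mice by a small amount (0.16 ± 0.07, adjusted p = 0.128), and *Crb3* (0.12 ± 0.11) and *Pard6b* (-0.05 ± 0.19) did not pass. The junctional adhesion molecules *F11r*, *Jam2* and *Jam3* passed at 0 doses in edgeR over all mice and in DESeq2, with 0 at an unadjusted p under 0.05. At 30 µg/kg, 17.8% of all genes passed in edgeR. *F11r*, the epithelial one, had 223, 213 and 219 CPM in vehicle mice and, at 30 µg/kg, 159, 263 and 256 CPM. Mouse 65 lay below vehicle and the other 2 above it, and the log2 fold change was 0.05 ± 0.12. Without mouse 65 it was 0.22 ± 0.08 and passed (adjusted p = 0.0484).

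Myosin light chain kinase (*Mylk*), expressed in epithelium and in muscle, had 172 to 211 CPM in vehicle mice and, at 30 µg/kg, 285, 179 and 201 CPM, and the difference of 0.17 ± 0.15 did not pass. Smooth muscle markers varied widely between mice, with sums of 40.0 to 130 CPM in the controls, of 68.7 to 415 CPM at 10 µg/kg and of 50.4 to 374 CPM at the top dose, none of the 7 at 0 and 0 of 7 passing at 30 µg/kg in edgeR or DESeq2, with 0 at an unadjusted p under 0.05. At 10 µg/kg 0 of 7 passed in either tool, but all 7 had an unadjusted p under 0.05 (median log2 fold change 1.95), where 17.4% of all genes did. The 7 markers are of the same cell type and are not independent of each other. *Mylk* was also under that unadjusted threshold at 10 µg/kg (0.30) and 0.3 µg/kg (0.35) without passing. The part of muscle in the level of *Mylk* was not tested.

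Across all 9 groups, a linear trend over the rank of the dose passed for 12 of the 33 genes (36.4%), where 25.7% of all genes passed (13.1% upward and 12.5% downward). It was upward for *Ildr1*, *Tjp1*, *Magi1*, *Magi3*, *Prkcz*, *Cgn*, *Pard3* and *Cldn3*, and downward for *Cldn8*, *Cldn12*, *Tjp3* and *Amot*. The fitted change from vehicle to the top dose was 1.61 ± 0.11 on the log2 scale for *Ildr1* (adjusted p = 5.48e-10) and -2.08 ± 0.28 for *Cldn8* (adjusted p = 1.04e-05). For *Tjp1* it was 0.43 ± 0.07 and for *Amot* -0.64 ± 0.11. *Cgn* (0.30 ± 0.08), *Pard3* (0.21 ± 0.05) and *Cldn3* (0.26 ± 0.09) passed by trend without passing at any dose in edgeR. *Cldn15* passed at 30 µg/kg and not by trend.

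Without regard to a test, the 3 mice at 30 µg/kg were all above or all below the 3 vehicle mice for 13 of the 33 genes, 7 above and 6 below (39.4%), against 27.1% of all genes. For a single gene, an exact two-sided permutation test of 3 mice against 3 cannot go below p = 0.1. It gave that smallest value at 30 µg/kg for 8 of the 10 passing genes, and an exact permutation p of 0.2 for *Magi3* and *Prkcz*, whose groups overlapped.

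The differences at 30 µg/kg were recomputed with terms for index use and for the clock score. With index use as a term, *Ildr1* (1.17 ± 0.26, adjusted p = 0.0146) and *Cldn8* (-2.79 ± 0.67, adjusted p = 0.0238) still passed, as did *Cldn23* (-0.87 ± 0.22, adjusted p = 0.035). The share of all genes called was 2.96% with that term. At 10 µg/kg 0 of 33 passed with it in edgeR, and 0 passed by trend, where 0.287 and 0.914% of all genes did. Vehicle and the highest doses do not share an index use, and the 3 mice at 1 µg/kg, with 1 and 2 of each use, are what separates this term from dose. With the clock score as a term, *Ildr1* passed at 30 µg/kg (1.72 ± 0.29, adjusted p = 0.0123), while *Cldn8* was at -1.33 ± 0.69 (adjusted p = 0.409) and *Cldn12* at -0.01 ± 0.19, and 15 of all 16741 genes passed. The score comes from these same counts, and 10 of its 11 genes passed at 30 µg/kg. Vehicle mice and mice at 30 µg/kg did not overlap in it, so this term largely follows dose and cannot be cleanly separated from it. In the fit of only the 6 mice compared, *Ildr1* (adjusted p = 0.001) and *Cldn8* (adjusted p = 0.0162) were the 2 of 32 junction genes that passed, where 5.05% of all genes did.

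**Figure D5:**
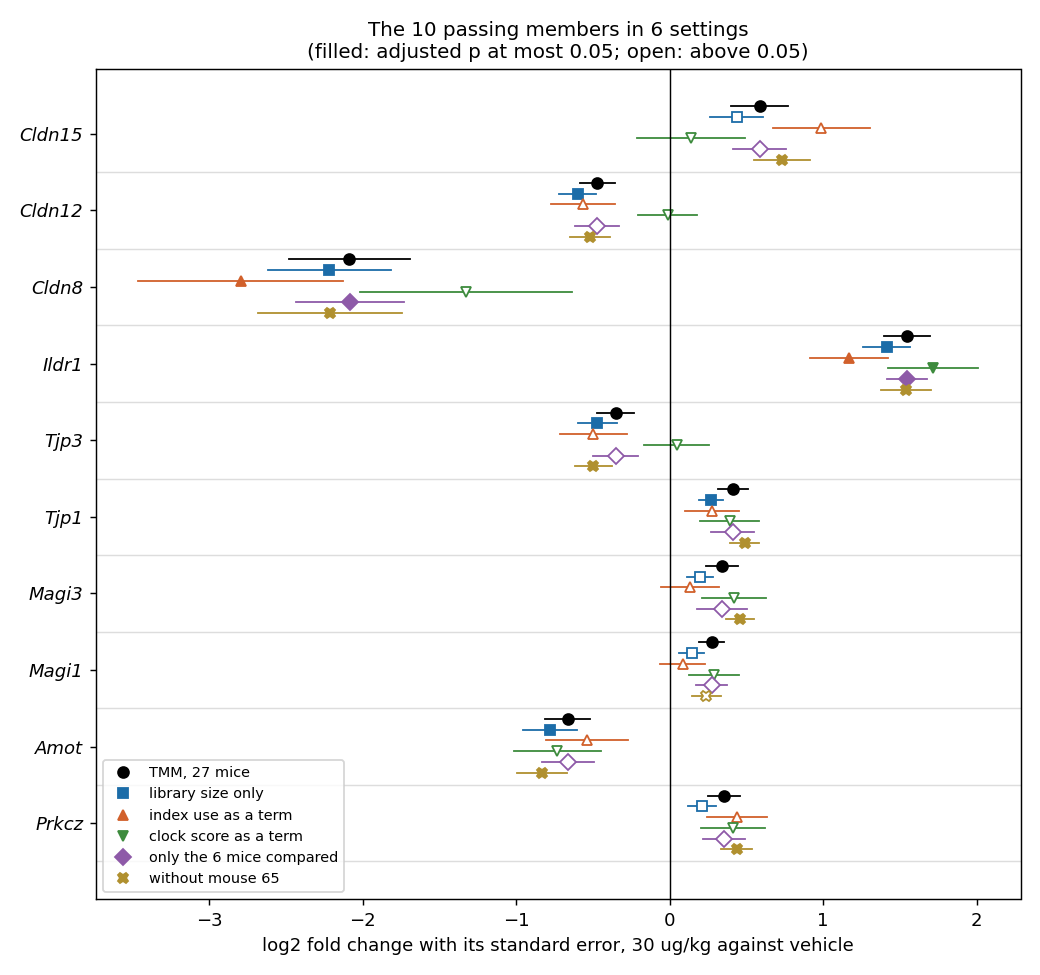
Log2 fold change at 30 µg/kg against vehicle, with its standard error, for the 10 passing genes in 6 settings; filled symbols have an adjusted p of at most 0.05 and open ones do not. *Ildr1* is filled in all 6 settings and *Cldn8* in all but the clock score setting, where it is at -1.33.

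The core of the sequence to which the AhR and its partner bind, GCGTG, and the E-box CACGTG, which clock proteins bind, were searched on both strands in RefSeq promoter windows (GRCm38.p6, 250 bases before to 50 after each start). Neither motif contains the other. Of the 34 genes, 27 had at least 1 window, and *Cldn8*, *Cldn23*, *Marveld3*, *Jam2*, *Jam3*, *Cdh1* and *Ctnna1* had none here. GCGTG occurred for 15 of the 27 genes (55.6%), against 35.2% of 27025 genes, and CACGTG for 5 (18.5%), against 8.09%. Among the 9 passing genes with a window, GCGTG occurred for 3 (*Cldn12*, *Tjp1* and *Prkcz*) and CACGTG for 2 (*Tjp3* and *Amot*). The 250 bases before the start are shown for the gene that rose most, *Ildr1*, in which neither motif was found, and for 2 genes that fell, *Cldn12* with GCGTG and *Amot* with CACGTG. Each reads 5′ to 3′ on the strand of its gene, with motif matches in capitals. They lie at chr16:36693728-36693977 (+ strand), chr5:5514977-5515226 (- strand) and chrX:145487640-145487889 (- strand). The *Amot* window precedes a RefSeq start that lies inside the Ensembl gene (chrX:145446425-145505181), downstream of its annotated 5′ end.
Ildr1: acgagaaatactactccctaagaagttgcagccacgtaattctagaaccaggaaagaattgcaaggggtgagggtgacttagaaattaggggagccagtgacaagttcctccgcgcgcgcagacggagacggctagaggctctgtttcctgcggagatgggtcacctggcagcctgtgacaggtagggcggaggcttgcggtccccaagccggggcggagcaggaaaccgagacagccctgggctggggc
Cldn12: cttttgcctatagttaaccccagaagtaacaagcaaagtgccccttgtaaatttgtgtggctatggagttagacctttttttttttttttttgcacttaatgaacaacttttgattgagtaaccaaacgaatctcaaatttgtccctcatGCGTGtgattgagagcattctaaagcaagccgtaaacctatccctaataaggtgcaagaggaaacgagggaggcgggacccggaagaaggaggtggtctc
Amot: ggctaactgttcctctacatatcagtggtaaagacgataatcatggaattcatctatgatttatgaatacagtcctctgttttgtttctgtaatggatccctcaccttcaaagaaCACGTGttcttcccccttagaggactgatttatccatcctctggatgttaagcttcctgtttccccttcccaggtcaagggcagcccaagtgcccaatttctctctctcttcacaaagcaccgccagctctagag
A match describes these letters only, and no binding was measured here.

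Other junction genes, outside the 34, were counted by lists. Among other tight junction and polarity genes, 6 of 38 passed at 30 µg/kg, 1 higher and 5 lower, where 17.8% of all genes passed. *Tjap1*, encoding a tight junction associated protein, was the 1 that rose, from 35.1 ± 2.07 to 63.9 ± 13.9 CPM (0.86 ± 0.12, adjusted p = 4.19e-05). *Pard3b* (-0.33), *Sympk* (-0.24) and the atypical kinase *Prkci* (-0.26), a relative of *Prkcz*, were lower. Of other adherens junction genes, 5 of 18 passed, 4 higher and 1 lower. *Lima1*, listed here as *Eplin*, which binds actin at the junction, rose from 319 ± 24.7 to 477 ± 40.8 CPM (0.58 ± 0.10, adjusted p = 0.000255) and had already passed at 1 µg/kg (0.45 ± 0.10, adjusted p = 0.0235). *Ajuba* (0.93), *Ctnna3* (1.86, from 0.19 to 0.708 CPM) and *Plekha7* (0.35) were also higher.

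Of the desmosome genes, 4 of 10 passed at 30 µg/kg, against the same 17.8% of all genes. The plakin genes periplakin (*Ppl*) and envoplakin (*Evpl*) were higher by 1.16 ± 0.16 and 0.84 ± 0.14 on the log2 scale (adjusted p = 2.42e-05 and 0.000224), and *Pkp2* (-0.26) and *Dsc2* (-0.35) lower. *Ppl* and *Evpl* passed at 10 µg/kg too. Gap junction genes had 1 of 8 passing, *Gjb2* (connexin 26), lower by -0.85. Among transcription factors of epithelial state, 3 of 15 passed: *Elf3* fell from 406 ± 16.8 to 210 ± 50.3 CPM (-0.95 ± 0.18, adjusted p = 0.000778), *Cdx1* was lower (-0.42) and *Hnf4g* higher (0.45). Of 18 other claudins, 3 had enough counts to test, and 0 passed at 30 µg/kg in edgeR or DESeq2, with 0 at an unadjusted p under 0.05. The median log2 fold changes at 30 µg/kg were 0.06, 0.11 and 0.15 in the other tight junction, other adherens junction and desmosome lists, beside 0.02 over all genes.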

How the data were processed

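Per the labels and the submitters' processing notes, the authors trimmed reads with Trimmomatic (0.33), mapped them to GRCm38 with TopHat2 (2.1.0) and counted them per gene with HTSeq (0.6.1). The counting options and strand setting are not given in the sources used here. The deposited values are raw counts per gene, 1 table per mouse. Of the reads counted as on a gene, on no feature or ambiguous, 44.48 to 49.52% fell on no feature and were left out. The 34 genes and all lists were chosen with earlier results of these data known.

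Counts were tested with edgeR (4.0.16) quasi-likelihood over 27 mice and 9 groups, with TMM scaling and filterByExpr (16741 genes), and Benjamini-Hochberg adjustment over all genes. All 34 genes were accounted for, and those passing at 30 µg/kg, or at 2 or more other doses, were given mouse by mouse. Of each other list, up to 4 genes with the smallest adjusted p were named. DESeq2 (1.42.0), other scalings, filters, covariates and leaving out each mouse were alternatives. On simulated counts, 32 of 67 genes changed 1.5-fold, 55 of 67 changed 2-fold and 65 of 66 changed 4-fold were recovered for 30 µg/kg against vehicle (16517 genes). Only genes with higher counts were changed, and all groups were given the same spread. The wider spread between mice at 30 µg/kg was not simulated, so recovery in the data can be lower. No same-dose libraries were identical (27 pairs).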

Additional observations from a re-analysis of the deposited data

Results flagged for a closer look

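The effect of TCDD on *Ildr1* differed between doses: its log2 fold change against vehicle was 1.55 at 30 µg/kg and 0.22 at 3 µg/kg, and the direct comparison of the 2 doses in edgeR gave 1.33 ± 0.15 (adjusted p = 1.36e-05), with all 3 mice at 30 µg/kg above all 3 at 3 µg/kg.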

How the results depend on the processing

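At 30 µg/kg, where 10 junction genes passed, 3 passed with index use as a term, 1 with the clock score as a term, 2 in the fit of only the mice compared and 4 with a fold change of 1.5 also required; leaving out 1 mouse gave 4 to 13. Over all genes, 2976 passed, and 495, 15, 772 and 1574 did in those 4 settings, with 1418 to 4575 when 1 mouse was left out. At 10 µg/kg, 0 passed with index use and 0 with the clock score in edgeR, against 2, and leaving out 1 mouse gave 2 to 3. At 3 µg/kg, against 0, 1 passed without a filter on low counts, 4 in the fit of only the mice compared and 1 in DESeq2. Of the 12 genes that passed by trend, 0 passed with index use and 1 with the clock score. For 30 against 3 µg/kg, leaving out 1 mouse gave 1 to 4 genes. *Tjp3* at 30 µg/kg changed sign with the clock score, to 0.05 on the log2 scale (0.047). Over the named genes, 168 alternative values were computed, of which 106 kept the call and 61 lost it. *Ildr1* at 30 µg/kg passed in all 14 alternatives and *Cldn8* in 13. The cause of these changes was not tested. No paired analysis was possible because the labels give each mouse its own number, so no number is shared between groups. With 3 mice a group, changes of 1.5-fold were recovered for 32 of 67 genes in simulated counts. That simulation used genes with higher counts and the same spread in all groups. *Cldn1* had too few counts to test.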
